A study of Mus musculus with 32 samples.

Results

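The Sox transcription factors described here are 9 genes: Sox2, Sox4, Sox6, Sox8, Sox9, Sox10, Sox11, Sox17 and Sox18. They were taken by symbol from the 27998 genes measured, after the Ensembl identifiers had been matched to symbols, and all 9 were found. The median eminence (ME) is a part of the mediobasal hypothalamus at the floor of the third ventricle, where hypothalamic axons meet vessels that are open to the blood. Its cells were taken from C57B/L6 mice aged 40 to 47 days, male by the general statement of the methods, which were either fasted overnight for 16 h (5 mice) or fasted likewise and then refed for 1 h (5 mice). The ME of each condition was pooled and dissociated, live single cells were sorted, and each pool was split over 2 libraries of droplet-based sequencing, where a unique molecular identifier (UMI) marks each captured transcript so that its copies are counted as 1. The 4 libraries lie in 1 table of 5982 cells, and the number from 1 to 4 that ends each cell barcode is not tied to a library or to a condition. All values are therefore for fasted and refed mice together, as 1 sample without replicates, and no test was possible. Values by barcode number show the spread over these parts of the sample only.

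Sox proteins bind DNA through a high mobility group (HMG) box related to that of the sex-determining protein Sry, and are sorted by sequence into groups named by letters. Members of 1 group often act in the same cells and can replace each other. Sox2 (SoxB) keeps neural stem and progenitor cells undifferentiated, Sox4 and Sox11 (SoxC) act in young neurons and other maturing cells, and Sox6 (SoxD, with Sox5) holds oligodendrocyte precursors immature. Of SoxE, Sox9 is needed for gliogenesis and is kept by astrocytes, and Sox10, with Sox8, drives oligodendrocytes to express myelin genes. Sox17 and Sox18 (SoxF) act in the endothelium of vessels.

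Cells were named from marker genes among which there was no Sox gene, and Sox genes were left out of the clustering. The names therefore mean astrocyte-like, tanycyte-like and so on. The lineage comprised oligodendrocyte progenitor cells (OPCs, 310 cells), differentiating OPCs (diffOPCs, 130) and mature oligodendrocytes (MOLs, 666). The other types were astrocytes (1421), tanycytes, which line the floor of the ventricle (1103), ciliated ependymocytes (203), neurons (508), microglia (402), macrophages (132), vascular and leptomeningeal cells (VLMCs, 268), mural cells (75), endothelial cells (84) and hormone-producing cells of the pars tuberalis (88). Of 92 markers, 1 of the 7 of neurons was higher in another type, and each of the rest was highest in its own type. A further 589 cells stayed unnamed, in clusters led by Gfap (316), Dio3 (213), Ccn3 (41) and Ccl5 (19). Median depth was 3837 UMIs per cell, from 2246 in endothelial cells to 13412 in neurons. Levels are UMIs of the gene per 1e+06 UMIs of the cells (CPM), and ranges in brackets are 95% intervals that cover counting error only. The share of cells with a UMI moves with depth and is therefore also given after each cell had been thinned to 1000 UMIs.

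Sox2 (4224 UMIs in all cells), Sox9 (4136) and Sox4 (3956) were counted most, followed by Sox8 (2874), Sox11 (1946), Sox10 (1912) and Sox6 (1038). Sox17 and Sox18 gave 128 and 56 UMIs, of which 127 and 54 lay outside the 3 cells with much haemoglobin RNA that were set apart. DiffOPCs held the highest CPM of the 13 types for 5 members (Sox2, Sox4, Sox6, Sox8 and Sox10) and OPCs for 1 (Sox11), so that 6 of 9 members led in the lineage, where 26.5% of the 13792 genes with at least 50 UMIs did. For Sox10 the lead of diffOPCs over OPCs was within counting error (ratio 1.03, 0.91 to 1.18). For Sox2 their lead over astrocytes was narrow (1.13, 1.01 to 1.27). Sox9 led in ependymocytes, a leading type that, together with astrocytes and tanycytes, was held by 21.5% of genes. Sox17 and Sox18 led in endothelial cells, as did 9.41% of genes. After thinning, the mean number of members with a UMI was 1.75 per diffOPC and 1.5 per OPC, against 0.89 per astrocyte, 0.40 per MOL, 0.30 per neuron and 0.08 per macrophage.

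**Figure D1:**
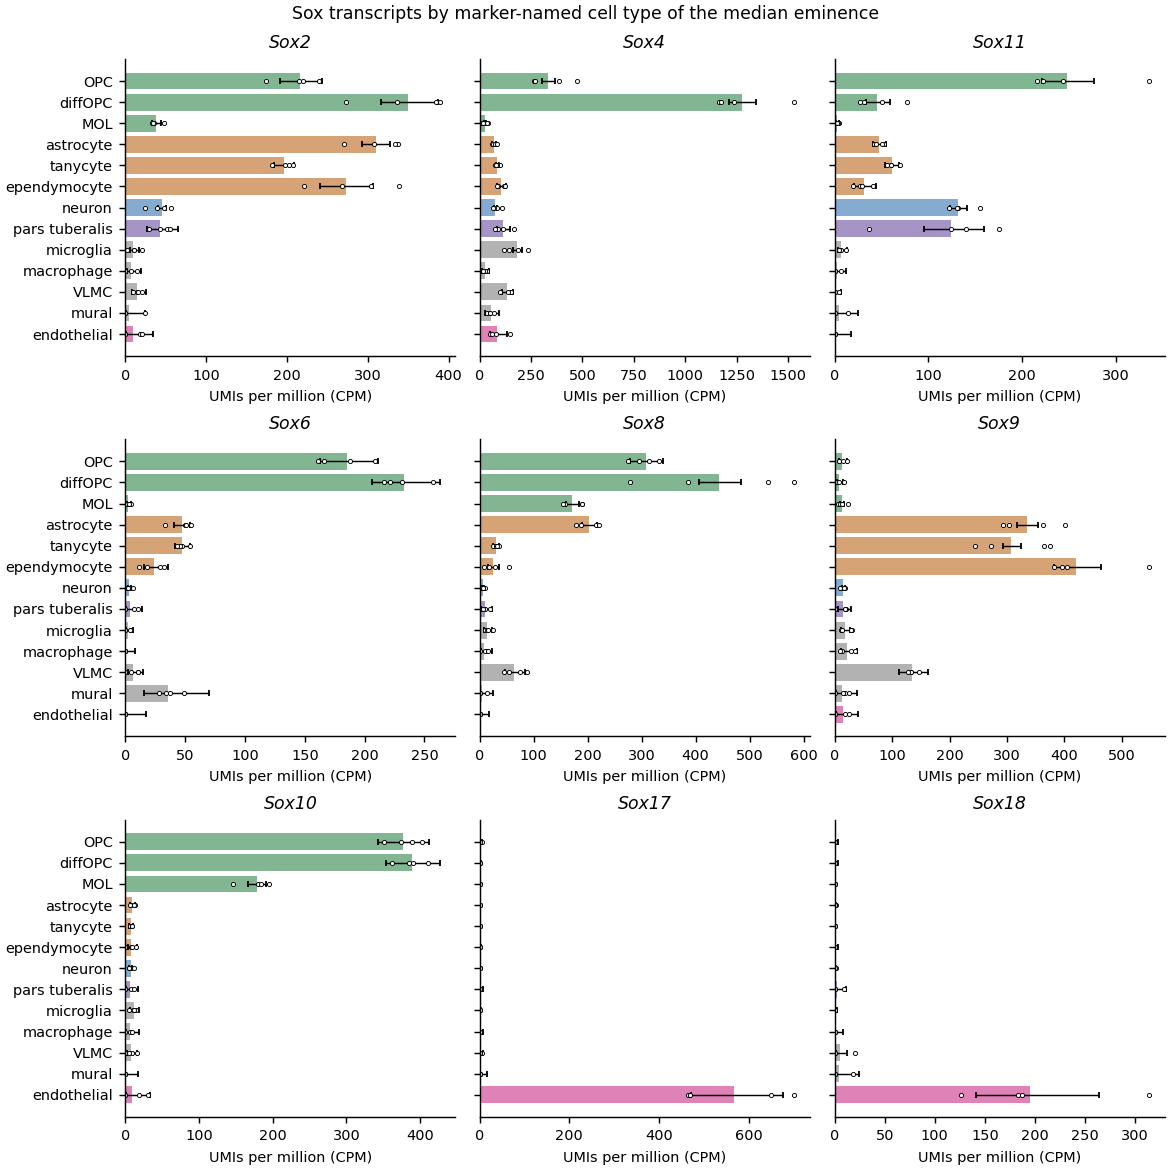
CPM (x axis, scaled per panel) of the 9 Sox members in 13 marker-named cell types. Bars are the level over all cells of a type, lines its 95% Poisson interval, and the 4 open points the level within each barcode number. Sox10 stands out in OPCs, diffOPCs and MOLs, Sox9 in astrocytes, tanycytes and ependymocytes, and Sox17 and Sox18 in endothelial cells.

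**Figure D2:**
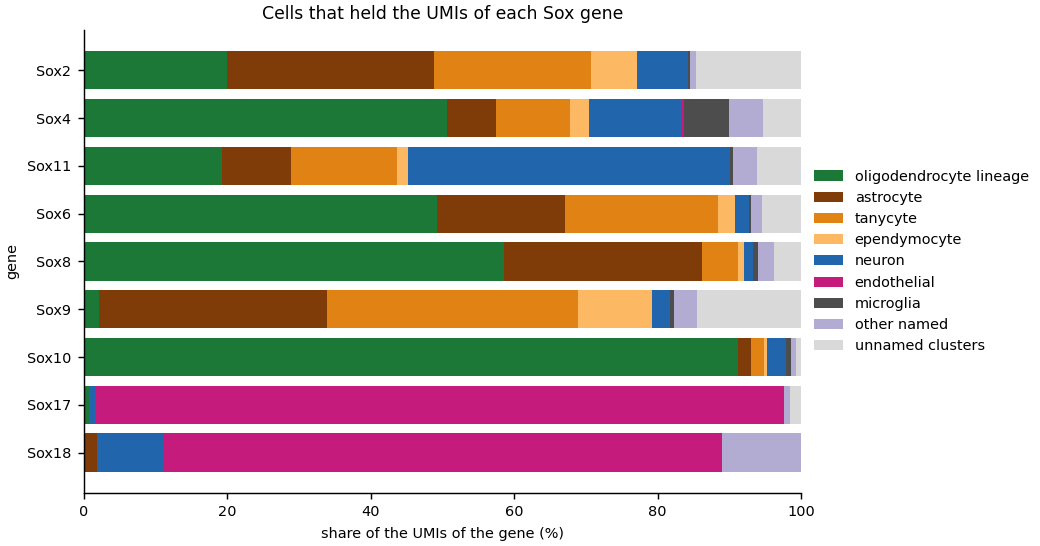
Share of the UMIs of each Sox gene (x axis, %) that lay in each kind of cell. The lineage held 91.2% of Sox10 and 58.5% of Sox8 UMIs but 2.1% of Sox9 UMIs, and endothelial cells held 96.1% of Sox17 UMIs.

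To follow the members through oligodendrocyte differentiation, the lineage was clustered again alone, which gave 308 OPCs, 140 diffOPCs and 658 MOLs. Genes with at least 50 UMIs in a pair of stages were compared by the log2 ratio of CPM with 10 CPM added. From OPCs to diffOPCs, 6 of the 9 members could be compared. Sox4 was higher in diffOPCs by at least 1 log2 unit, a direction taken by 6.6% of 7030 genes. Sox11 was lower by at least 1 log2 unit, like 12.5% of genes, and Sox2, Sox6, Sox8 and Sox10 lay within 1 log2 unit. From diffOPCs to MOLs, 7 members could be compared, and 6 of them (Sox2, Sox4, Sox6, Sox8, Sox10 and Sox11) were lower in MOLs by at least 1 log2 unit, where 13.8% of 8115 genes were. No member was higher in MOLs by that amount, against 7.57% of genes. The median log2 ratio of the members compared was -1.97 at this step, and -0.29 over all genes compared.

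**Figure D3:**
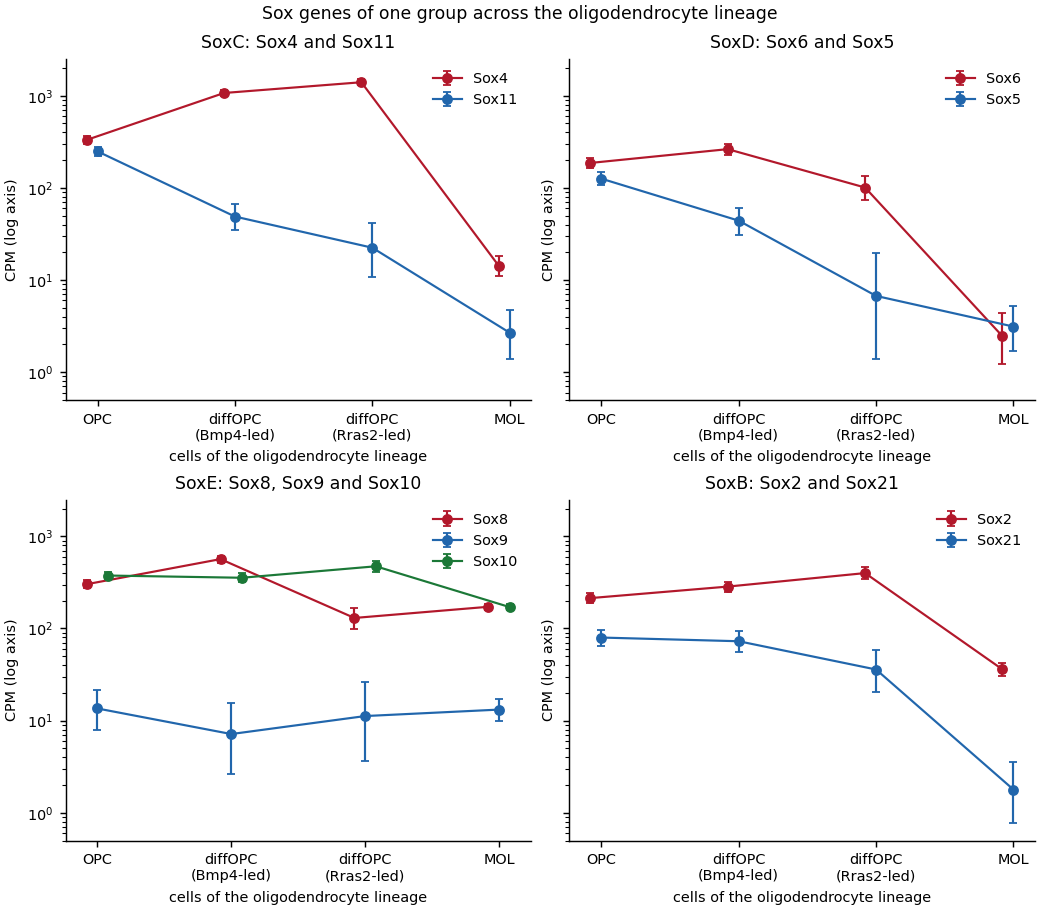
CPM (y axis, log scale) of Sox genes of 1 group in OPCs, in the diffOPC clusters led by Bmp4 and by Rras2, and in MOLs, with 95% Poisson intervals. Lines join the values of a gene. Sox4 and Sox11 start from 332 and 249 CPM in OPCs and go apart in diffOPCs, and Sox8 and Sox10 part between the diffOPC clusters.

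Among SoxE genes, Sox10 (ENSMUSG00000033006, chr15:79154908-79165240, GRCm38) was the member held most closely by the lineage, with 1744 of 1912 UMIs in it (91.2%, exact binomial interval 89.9 to 92.4). Its level was 377 CPM in OPCs (344 to 412), 389 in diffOPCs (353 to 427) and 179 in MOLs (167 to 191). Outside the lineage, no named type exceeded 11.2 CPM, the value in microglia. A Sox10 UMI was found in 75.5% of OPCs, 93.1% of diffOPCs and 64.3% of MOLs (median depths 4024.5, 8604 and 6150 UMIs), against 2.3% of astrocytes and 8.7% of the deeply sequenced neurons. These last shares, 0.9% and 0.4% in thinned cells, were read as background. Thinned OPCs, diffOPCs and MOLs had 31.3%, 34.6% and 18.9%. By stage, Sox10 differed little between OPCs and diffOPCs (ratio 1.05, 0.93 to 1.2) and was 2.32-fold lower in MOLs than in diffOPCs (2.07 to 2.60). It was lower in MOLs within each of the 4 barcode numbers, where MOLs had 172, 141, 185 and 177 CPM and diffOPCs 417, 399, 395 and 369 CPM. In thinned cells this log2 ratio was -0.90 rather than -1.17, short of the 1 log2 unit used for counting. The 6 MOL clusters had between 133 CPM (cluster led by Acta2) and 195 CPM (led by Dcn).

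Sox8 (ENSMUSG00000024176, chr17:25565892-25570686), which overlaps with Sox10 in function, had a wider range. It was highest in diffOPCs (443 CPM, 405 to 483), followed by OPCs (308, 278 to 340), astrocytes (203, 189 to 217) and MOLs (171, 159 to 183). The intervals of astrocytes and MOLs did not overlap. Tanycytes and ependymocytes, the other cells with much Sox9, had 29.96 and 23.9 CPM of Sox8, and astrocytes had 27.7% of all Sox8 UMIs, against 58.5% in the lineage. In thinned cells, in which each cell weighs the same, these shares were 42% and 43.6%. A Sox8 UMI was found in 41.9% of astrocytes and 11.8% of tanycytes, and in 18.4% and 3.8% after thinning, in the same order although tanycytes were the deeper cells. Neurons, at 5.9 CPM and 1.0% of thinned cells, give the background. By stage, Sox8 was 1.37-fold higher in diffOPCs than in OPCs (1.2 to 1.57), in 3 of 4 barcode numbers, and 2.41-fold lower in MOLs than in diffOPCs (2.16 to 2.70). Both ratios take diffOPCs as 1 stage, within which Sox8 was uneven.

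The diffOPC stage was made of a cluster led by Bmp4 (102 cells), in which the OPC markers summed to 1031 CPM and the MOL markers to 603 CPM, and a cluster led by Rras2 (38 cells), in which they summed to 137 and 7106 CPM. Sox8 had 566 CPM in the cells led by Bmp4 (475 UMIs) and 130.1 CPM in those led by Rras2 (58 UMIs), a 4.35-fold difference (3.31 to 5.82). MOLs by stage had 172 CPM of Sox8 (160 to 185). They were thus below the cells led by Bmp4 but not below those led by Rras2 (98.8 to 168). Sox10 went the other way, with 355 and 473 CPM (ratio 1.33, 1.11 to 1.59). Sox8 was lower in the cluster led by Rras2 in 4 of 4 barcode numbers, and Sox10 was higher in 4 of 4. Of the 6 members that could be compared between these clusters, Sox6 and Sox8 were lower by at least 1 log2 unit, where 7.83% of 4266 genes were, and none was higher by that amount, against 6.14% of genes. The clusters also differed in depth, with medians of 7916 and 11573 UMIs.

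Sox9 (ENSMUSG00000000567, chr11:112782224-112787760), the remaining SoxE member, was high where Sox10 was at background. It reached 421 CPM in ependymocytes (382 to 463), 335 in astrocytes (317 to 353) and 308 in tanycytes (292 to 324). The level in ependymocytes was 1.26-fold that in astrocytes (1.12 to 1.4). Together these types held 77.1% of Sox9 UMIs (75.8 to 78.4), and the unnamed clusters led by Gfap and Dio3 added cells with 308 and 192 CPM. VLMCs were at 135 CPM (111 to 163), with a UMI in 29.1% of cells. The 8 astrocyte markers summed to 700 CPM in VLMCs and to 16885 CPM in astrocytes (Sox9 335 CPM). Their part in the Sox9 level of VLMCs was not tested. In OPCs, diffOPCs and MOLs, Sox9 had 13.5, 7.9 and 13.2 CPM, within the range of 13.3 to 21.5 CPM seen in mural cells, endothelial cells, neurons, microglia and macrophages or below it, and so not above background.

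Sox9 and Sox10 were therefore seldom counted in the same cell. Of 942 cells with a Sox10 UMI, 123 (13.1%, 11.0 to 15.4) also had a Sox9 UMI, where 38.5% of all cells did. With thinned cells the share was 2.9%, or 9 of 311. Sox10 and Sox8 were found together in 584 of the 942 cells (62.0%, 58.8 to 65.1). Within OPCs, 70.3% of cells with Sox10 and 67.2% of all cells had a Sox8 UMI. The pair was 87.8% and 87.1% in diffOPCs and 65.5% and 62.9% in MOLs. In each stage most cells had Sox10 themselves (75.3% of OPCs, 93.6% of diffOPCs and 63.8% of MOLs). This draws the shares of each pair together, so that they say little on whether the genes were found independently, which was not tested. In astrocytes, 42.1% of cells with Sox9 and 41.9% of all cells had a Sox8 UMI. Both were found in 339 astrocytes, against 337 if independent. Sox2 and Sox9 were found together in 1247 of 2465 cells with Sox2 (50.6%), and in astrocytes 59.2% of cells with Sox2 had a Sox9 UMI, against 56.7% of all astrocytes. Both were found in 458 astrocytes, against 439 if independent.

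The SoxC genes Sox4 (ENSMUSG00000076431, chr13:28948919-28953713) and Sox11 (ENSMUSG00000063632, chr12:27334264-27342574) differed in direction from OPCs to diffOPCs, and both were lower in MOLs than in diffOPCs. By stage, Sox4 had 332 CPM in OPCs (301 to 365), 1186 in diffOPCs (1127 to 1247) and 14.3 in MOLs (11.0 to 18.3). It was thus 3.58-fold higher in diffOPCs than in OPCs (3.21 to 4.0) and 83.0-fold lower in MOLs than in diffOPCs (64.6 to 108). The latter fold rested on 64 UMIs in MOLs, and was 107-fold (76.8 to 152) with 37 UMIs without barcode number 4. It also depends on how the lineage is divided. In the clusters of all cells, diffOPCs had 1278 CPM, but MOLs held more Sox4 UMIs than by stage, and the fold was smaller. In the barcode numbers, Sox4 had 266, 268, 383 and 472 CPM in OPCs and 1154, 1173, 1324 and 1077 in diffOPCs, without overlap. Sox11 had 249 CPM in OPCs (222 to 278), 39.7 in diffOPCs (29.6 to 52.2) and 2.7 in MOLs (1.4 to 4.7). In OPCs, Sox4 was higher than Sox11 in each barcode number. Sox11 was 6.27-fold lower in diffOPCs than in OPCs (4.65 to 8.60), with 225, 243, 340 and 215 CPM in OPCs of the barcode numbers and 28.7, 48.4, 22.7 and 66.5 in diffOPCs. Sox4 exons share 2616 bases with the antisense gene Gm26735, which gave 70 UMIs in all cells, and whether counting used strand is not stated.

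The 250 bases upstream of the RefSeq start of Sox4 and Sox11 are shown because these paralogues part within the lineage, and those of Sox8 and Sox2 for their levels in the same cells. Capitals mark CANNTG (the E-box, bound by basic helix-loop-helix factors such as Olig proteins) and CCAAT, both searched on either strand. The build is GRCm38.p6 and each sequence is given 5′ to 3′ on the strand of the gene.
Sox4 (chr13:28953700-28953949, minus strand): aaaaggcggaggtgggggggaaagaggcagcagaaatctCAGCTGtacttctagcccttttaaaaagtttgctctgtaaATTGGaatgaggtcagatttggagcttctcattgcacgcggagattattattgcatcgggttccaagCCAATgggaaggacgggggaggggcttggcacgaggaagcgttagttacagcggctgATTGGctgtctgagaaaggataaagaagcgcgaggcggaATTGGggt
Sox11 (chr12:27342719-27342968, minus strand): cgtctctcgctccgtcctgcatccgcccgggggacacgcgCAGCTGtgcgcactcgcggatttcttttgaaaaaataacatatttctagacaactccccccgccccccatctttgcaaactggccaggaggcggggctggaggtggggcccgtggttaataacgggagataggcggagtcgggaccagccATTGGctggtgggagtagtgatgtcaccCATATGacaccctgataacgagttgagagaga
Sox8 (chr17:25570687-25570936, minus strand): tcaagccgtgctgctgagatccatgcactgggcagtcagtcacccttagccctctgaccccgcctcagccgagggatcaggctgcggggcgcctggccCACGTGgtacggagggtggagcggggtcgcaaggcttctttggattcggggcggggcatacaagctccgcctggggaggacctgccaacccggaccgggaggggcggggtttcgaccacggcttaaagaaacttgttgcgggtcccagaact
Sox2 (chr3:34649745-34649994, plus strand): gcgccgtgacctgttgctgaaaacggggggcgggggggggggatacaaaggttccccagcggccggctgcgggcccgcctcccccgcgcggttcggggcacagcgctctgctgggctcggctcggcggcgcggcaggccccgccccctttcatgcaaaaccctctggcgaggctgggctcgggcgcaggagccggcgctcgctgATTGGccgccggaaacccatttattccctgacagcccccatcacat
Sox4 held 4 matches to CCAAT and 1 to CANNTG, Sox11 held 1 and 2, Sox8 held 0 and 1, and Sox2 held 1 and 0. Of 32851 promoter windows of the same length, 33.8% held CCAAT and 66.2% held CANNTG. Of short cores that Sox proteins can bind, ACAAT was in none of these 4 windows and in 27.7% of all windows. ACAAAG was found in that of Sox2, without capitals, and in 16.5% of all windows. The share of G and C was 50.8% for Sox4, 58% for Sox11, 65.6% for Sox8 and 72% for Sox2. A promoter window was found for 5 of the 9 members, including Sox6, which has several starts and is not shown.

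Outside the lineage, microglia and VLMCs had Sox4 without Sox11, and neurons had more Sox11 than Sox4. Sox4 had 184 CPM in microglia (162 to 208), 133 in VLMCs, 112 in the pars tuberalis and 77.1 in neurons. A Sox4 UMI was found in 38.8% of microglia and 7.6% of macrophages, which had close median depths of 3080 and 3229 UMIs, and in 18.9% and 3.0% after thinning. Markers of diffOPCs, the cells with most Sox4, summed to 85 CPM in microglia, against 8940 CPM in diffOPCs. Sox11 had 132 CPM in neurons (123 to 141), 124 in the pars tuberalis (95.4 to 159) and 6.7 in microglia. Neurons held 872 of 1946 Sox11 UMIs (44.8%), which was 24.4% in thinned cells. Neurons were the deepest cells. The pars tuberalis value had the widest spread over barcode numbers, from 36.5 to 176 CPM. In neurons, 77.2% of cells with Sox4 had a Sox11 UMI, where 68.9% of all neurons did. With at least 2 UMIs of each, the shares were 50.4% of 123 cells (41.2 to 59.5) and 43.1%. In thinned neurons they were 12.8% of 39 cells (4.3 to 27.4) and 13.98%, too few cells to show or exclude such a difference.

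Sox6 (ENSMUSG00000051910, chr7:115470872-116038796) was as high in diffOPCs, taken as 1 stage, as in OPCs within counting error, while its SoxD partner Sox5 was lower. In 4 of 4 barcode numbers, Sox6 was slightly higher in diffOPCs than in OPCs. Sox6 had 187 CPM in OPCs (163 to 212), 207 in diffOPCs (183 to 233) and 2.5 in MOLs (1.2 to 4.4), a ratio of 1.11 at the earlier step (0.93 to 1.33) and an 84.3-fold lower level in MOLs at the later step (46.3 to 171). This fold rested on 11 UMIs in MOLs, and it was 142-fold (59.7 to 441) with 5 UMIs when barcode number 3 was left out. MOLs had no Sox6 UMI in barcode number 1 and at most 5.0 CPM in the others. Sox5 had 126, 31.1 and 3.1 CPM, and was 4.05-fold lower in diffOPCs than in OPCs (2.84 to 5.88). Within diffOPCs, Sox6 had 263 CPM in the cells led by Bmp4 (230 to 301), above OPCs. In those led by Rras2 it had 101 CPM (73.6 to 135), below OPCs. It was 2.61-fold lower in the cells led by Rras2 than in those led by Bmp4 (1.89 to 3.68), and lower in 4 of 4 barcode numbers. Sox5 UMIs in these clusters were 37 and 3. Other cells with Sox6 were tanycytes (47.2 CPM), astrocytes (47.1), mural cells (35.6, 15.4 to 70.1, from 8 UMIs) and ependymocytes (23.9, 15.3 to 35.5, from 24 UMIs), while neurons had 3.2 CPM. Sox6 shares no exon base with its antisense gene Sox6os, which gave 101 UMIs.

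Sox2 (ENSMUSG00000074637, chr3:34650405-34652461) was found both in the lineage and in the glia with Sox9. It had 350.3 CPM in diffOPCs (317 to 386), 309.7 in astrocytes (293 to 327), 273 in ependymocytes (241 to 307), 216 in OPCs (191 to 243) and 196 in tanycytes (184 to 209). The ratio of diffOPCs to astrocytes was 1.13 (1.01 to 1.27), and the intervals of astrocytes and ependymocytes, and of OPCs and tanycytes, overlapped. Astrocytes, tanycytes and ependymocytes together held 57.1% of Sox2 UMIs and the lineage 20.03%. Within tanycytes, the cluster led by Kctd14 had 228 CPM and that led by Scn7a 163 CPM. In MOLs, Sox2 reached 37.7 CPM and 20.4% of cells, above microglia at 9.7 CPM and 3.0%. MOLs were the deeper cells (median 6150 against 3080 UMIs), which widens the gap in shares. Of MOLs by stage, 2.6% had a Sox2 UMI after thinning. By stage, Sox2 was 1.52-fold higher in diffOPCs than in OPCs (1.30 to 1.78) and 9.02-fold lower in MOLs than in diffOPCs (7.51 to 10.9), each in 4 of 4 barcode numbers. Within diffOPCs, the cells led by Bmp4 had 285 CPM and those led by Rras2 399 CPM (ratio 1.4, 1.15 to 1.71). It was higher in the cells led by Rras2 in 3 of 4 barcode numbers, and in number 2 it had 330.3 and 296 CPM.

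Neurons had 44.7 CPM of Sox2, but not evenly. Of 3 main neuron clusters, that led by Vip (80 cells) had 181 CPM, that led by Gal (360 cells) 37.6 CPM and that led by Agrp (68 cells) 10.1 CPM. When neurons were clustered again alone into 14 clusters, Sox2 was highest in the cluster led by Cck and Vipr2 (36 cells, 184 CPM, 132 to 248) and in that led by Vip and Prok2 (55 cells, 167 CPM, 129 to 212), a level close to that of tanycytes. Vip, Prok2 and Vipr2 are genes of signalling in the suprachiasmatic nucleus. In the barcode numbers, these clusters had 226, 130, 148 and 229 CPM and 195, 50.1, 118 and 241 CPM. Neurons led by Pomc followed at 76.6 CPM (59.4 to 97.3), and neurons led by Npy and Agrp (7.5 CPM) and by Ghrh (5.8 CPM) were lowest. A Sox2 UMI was found in 60.0% of cells led by Vip and Prok2 and 13.1% of those led by Npy and Agrp, although the cells with Npy and Agrp were deeper (median 18648 against 7362 UMIs). The 8 astrocyte markers summed to 241 and 259 CPM in the clusters led by Cck and by Vip, and lay between 227 and 508 CPM over all 14 clusters. The 8 tanycyte markers summed to 241 and 132 CPM there, in a range of 61.8 to 381 CPM, and the 7 ependymocyte markers to 210 and 159 CPM, in a range of 64.6 to 234 CPM. Their part in the Sox2 level was not tested. Sox9 had 17.5 and 2.5 CPM in these clusters. The related SoxB gene Sox3 was also highest in them, at 39.4 and 24.9 CPM from 9 and 10 UMIs, and Sox1 had 39.4 and 52.2 CPM. Sox11 ran from 67.1 CPM in cells led by Vip and Prok2 to 199.6 CPM in cells led by Tac1, and the intervals of most clusters overlapped.

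The SoxF genes Sox17 (ENSMUSG00000025902, chr1:4490931-4497354) and Sox18 (ENSMUSG00000046470, chr2:181669836-181671640) were endothelial. Sox17 had 122 of 127 UMIs in the 84 endothelial cells (96.1%, 91.1 to 98.7), or 567 CPM (471 to 677), with 701, 465, 649.5 and 468 CPM in the barcode numbers. It was listed at 0 in 9 of 13 types, including mural cells, for which a count of 0 allows up to 13.3 CPM. Sox18 had 42 of 54 UMIs there (77.8%, 64.4 to 88.0), or 195 CPM (141 to 264). Of its remaining UMIs, 5 lay in neurons and 4 in VLMCs. A Sox17 UMI was found in 63.1% of endothelial cells and a Sox18 UMI in 35.7%, at a median depth of 2246 UMIs. Of 53 endothelial cells with Sox17, 19 had Sox18 as well (35.8%, 23.1 to 50.2), a share equal to that of all endothelial cells within counting error. The remaining SoxF gene, Sox7, gave 7 UMIs in endothelial cells and 16 in all.

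Of the other Sox genes, Sox5 (1225 UMIs), Sox1 (857), Sox21 (634), Sox12 (269), Sox3 (141) and Sox14 (112) passed 100 UMIs, while Sox13 gave 78, Sox15 9 and Sox30 3. Sox1, of SoxB, had 92.1 CPM in astrocytes, 77.6 in ependymocytes and 38.7 in tanycytes, and 7.9 CPM or less in OPCs, diffOPCs and MOLs, unlike Sox2. Sox5 was highest in OPCs (127 CPM) and had 71.2 CPM in tanycytes and 67.4 in astrocytes. Sox21, which counteracts SoxB activators, had 79.7 CPM in OPCs and 59.9 in diffOPCs by stage, and 1.8 in MOLs, 33.5-fold lower than in diffOPCs (16.2 to 80.4) and 51.7-fold lower (19.2 to 196) without barcode number 4. Sox12, the remaining SoxC gene, had 32.7, 14.01 and 7.1 CPM at these stages, and Sox3 had 27, 9 and 1 UMIs. Sox14 was highest in the pars tuberalis (25.6 CPM, 13 UMIs) and neurons (12.3 CPM, 81 UMIs).

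Genes known to work with or below the members were counted over 4 lists. Of 12 oligodendrocyte regulators, 9 had their highest CPM in the lineage, led by Olig1 (3243 CPM in OPCs) and Olig2 (961 CPM in OPCs), basic helix-loop-helix factors that specify the lineage. Over all genes with at least 50 UMIs, 26.5% led in the lineage. Of the 11 regulators compared between OPCs and diffOPCs, 5 had a log2 ratio of at least 1 (Myrf, Nkx2-2, Nkx6-2, Zfp488 and Tcf7l2) and 5 were lower (among them Olig1, Olig2, Id2 and Hes5). Over all genes compared, 6.6% were higher and 12.5% lower at this step. Tcf7l2 is a marker that named diffOPCs, so its lead and its difference are no result. Of 11 myelin and glial genes known to lie below Sox10, Mag, Mog, Pdgfra and Cspg4 are among the markers that named the lineage cells, so that their lead there was fixed. The other genes of the list also had their highest CPM in the lineage, although Dhh rested on 3 UMIs. Cnp, an enzyme of myelin, had 8492 CPM in MOLs. From diffOPCs to MOLs, where Sox10 was lower, 6 of the 8 compared passed 1 log2 unit upward and 0 downward. Mag and Mog are among these 6. Over all genes compared, 7.57% were higher and 13.8% lower in MOLs. The differences of Mag, Mog, Pdgfra and Cspg4 between stages are no result for the same reason.

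Of 11 neural stem and radial glial genes found with Sox2 and Sox9, 5 were highest in astrocytes, tanycytes or ependymocytes, as were 21.5% of all genes. Among these 5 were the glutamate transporter Slc1a3 (3528 CPM in astrocytes) and the Notch target Hes1 (610 CPM in tanycytes). Hes1 was nearly as high in endothelial cells (581 CPM, ratio 1.05, 0.88 to 1.27) and had 458 CPM in mural cells. The others led elsewhere: Nes and Notch1 in endothelial cells, Vim in mural cells, Nfia in VLMCs, and Fabp7 and Nfix in OPCs. From OPCs to diffOPCs, 7 of 7 list genes compared were lower by at least 1 log2 unit, like 12.5% of all genes, whereas Sox2 had a log2 ratio of 0.58. Slc1a3 had 220.1 CPM in OPCs and 31.1 in diffOPCs, and Hes1 had 120.4 and 14.01. Of 9 endothelial genes found with Sox17 and Sox18, 7 were highest in endothelial cells, as were 9.41% of all genes. The 7 included the tight junction gene Cldn5 (5842 CPM), itself a marker of the type, and the cadherin gene Cdh5 (330.2 CPM).

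The genes most like each member over the 13 types were picked by Pearson correlation of log2 levels among 7411 genes with at least 500 UMIs. The points share libraries and the correlations are a description. Sox10 was most like Prkcq, Gjc3 and Olig1 (r = 0.98, 0.97 and 0.96), Sox8 most like Abcd3, Scrg1 and Nkx2-2 (0.91, 0.91 and 0.90), and Sox9 most like Prdx4, Bdh2 and Mgst1 (0.97, 0.96 and 0.95). Rimklb and Mthfd1 were among the 3 genes most like Sox2 (0.94 and 0.93), and Sox6 most like Nit2, Sox21 and Kank1 (0.92, 0.92 and 0.91). Sox4 was most like Trio, Cpsf6 and Kbtbd3 (0.91, 0.91 and 0.89), and Sox11 most like Tox, Zfp444 and Miat (0.98, 0.94 and 0.94). With ranks in place of log2 levels, 1 of these 21 genes was picked again, Tox for Sox11, so the order among close genes rests on the measure. Between members, r was 0.81 for Sox8 with Sox10 and -0.38 for Sox9 with Sox10.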

How the data were processed

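Single cells of the ME were counted in 4 libraries, listed as 32 sample records. The authors mapped reads to GRCm38 (mm10) and counted UMIs with Cell Ranger 2.0 (per the submitters' processing notes), and the deposited values are these counts per gene and cell, without normalization. The annotation release, the use of strand in counting and the calling of cells are not given in the sources used here. Of 27998 identifiers, 27645 matched GENCODE vM21. Columns of per-sample values not used numbered 0. The members and gene lists were chosen with earlier results of these data known.

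No cell was removed for depth. The 5982 cells held 29288898 UMIs (1533 to 25054 per cell), and 3 cells were set apart because haemoglobin made up 10% or more of their UMIs. Of all barcodes, 21 occurred under more than 1 number. After scaling each cell to the median depth and taking logs, 2000 variable genes without Sox genes gave 30 principal components, 15 neighbours and 22 Leiden clusters at resolution 1 (seed 0, scanpy 1.11.5, igraph 0.11.9). A cluster took the name of 1 of 13 marker lists when its score (mean over the markers of CPM relative to the best cluster) was at least 0.3 and 1.5 times the next, with at least 3 markers 4 times above the median cluster. It stayed unnamed where markers of another list led its top 10 genes, or where no own marker did and the score was under 0.45 of the best. These thresholds were set after seeing the data. The lineage and the neurons were reclustered alone. Doublets (Scrublet per barcode number, 50 cells, 0.836%) were kept.

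CPM is the sum of UMIs over a group per 1e+06 UMIs. Shares carry exact Clopper-Pearson, levels exact Poisson and ratios exact conditional binomial intervals at 95%, for counting error only, since UMIs of 1 cell are not independent. A count of 0 is read as at most 3 counts. Promoter windows came from RefSeq. Genes named are the 9 members, the other Sox genes with at least 100 UMIs, the 3 genes most like each member with at least 200 UMIs, and 2 genes from each of 4 lists, some of which are not reported here. Further list genes, cluster-leading genes and smaller Sox genes were named after their values were seen. The identity of the HMG boxes was planned but not computed here.

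On simulated data, 100% of 5390 cells drawn from the type profiles got their own type back. For OPCs against diffOPCs, counts of 6970 genes were simulated with a 4-fold change in 179 of them, of which 99.4% passed 1 log2 unit in the right direction. Of the unchanged genes, 0% passed it. Cells were drawn from the summed profile of their own type, without variation within a type and without unnamed cells. Stage counts were drawn as 1 sum per stage. These checks therefore test the code only, and not the naming or the stage differences of the real cells. The alternatives were K-means (9 clusters, 3 for the lineage), resolutions of 0.5 and 2, Sox genes kept among the variable genes, removal of doublets, a filter on cells (1000 UMIs, 20% mitochondrial), thinned cells, each barcode number left out, at least 2 UMIs for a positive cell, a pseudocount of 1 CPM, stages from the clusters of all cells and Spearman correlation. Equal weight for each cell, and stage ratios without each barcode number with stages kept, were added after seeing the data.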

Additional observations from a re-analysis of the deposited data

How the results depend on the processing

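No paired analysis was possible because cells could not be tied to libraries or conditions. The number of members past 1 log2 unit at each stage step kept within 1.5 times its value under each alternative run, and of the single stage ratios 1, Sox10 from diffOPCs to MOLs, went under 1 log2 unit, in thinned cells (-0.90). Shares of UMIs moved beyond their counting interval when cells were thinned, which gives every cell the same weight: Sox10 in the lineage was then 87.6%, Sox8 in the lineage 43.6% and in astrocytes 42.0%, Sox9 and Sox2 in astrocytes, tanycytes and ependymocytes 82.9% and 68.2%, and Sox11 in neurons 24.4%. For Sox9 and Sox2, the shares were 91.8% and 72.0% with K-means, 87.8% and 66.5% at resolution 0.5, and 67.4% and 49.8% at resolution 2. Sox11 in neurons was 47.9% at resolution 2. Leaving out barcode number 2 gave 26.0% for Sox8 in astrocytes, 81.8% for Sox9, 59.9% for Sox2 and 47.1% for Sox11, and leaving out number 1 gave 50.4% for Sox11. The share of cells with Sox10 that had Sox9 was 2.89% in thinned cells and 1.51% with at least 2 UMIs of each. That of Sox9 with Sox8 was 8.03% and 5.94%, and that of Sox17 with Sox18 was 20.6% and 19.4%. The causes were not tested. Sox9, Sox17 and Sox18 gave fewer than 50 UMIs in OPCs and diffOPCs and were not compared between them. With the stages kept, the fold of Sox6 between diffOPCs and MOLs lay between 59.1 and 142 when each barcode number was left out.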

Other observations

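Several clusters outside the comparisons also held Sox transcripts. The unnamed cluster led by Gfap, which had markers of tanycytes and ependymocytes, had 268 CPM of Sox2 and 308 CPM of Sox9, with a Sox9 UMI in 67.4% of its 316 cells. The unnamed cluster led by Dio3 had more Sox2 (285 CPM, 249 to 324) than Sox9 (192 CPM, 163 to 225), the reverse of the order in tanycytes (196 and 308 CPM). The 41 cells led by Ccn3, a cluster with keratin genes among its leading genes, had 179 CPM of Sox4 (124 to 250.3) and 105 CPM of Sox9. In the 19 cells led by Ccl5, 1 UMI each of Sox4 and Sox10 was counted and none of the other members.

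Sox14, a SoxB gene of few neurons, was counted mostly in the neuron clusters led by Tac1 and Unc13c (79.8 CPM, 30 UMIs in 25 cells) and by Tac2 (47.01 CPM, 32 UMIs in 51 cells), and 17 UMIs lay in the 58 cells led by Pomc. It was at 0 in the 61 cells led by Npy and Agrp, for which a count of 0 allows up to 2.8 CPM. Sox14 is among the genes that lead the cluster led by Tac1, although Sox genes were not used to form the clusters.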
